A study of Mus musculus with 9 samples.

Results

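The kallikrein-kinin system was described in inguinal white adipose tissue through its 4 central genes, the kininogens Kng1 and Kng2 and the bradykinin receptors Bdkrb1 and Bdkrb2. They were chosen by symbol, 4 of the 30102 genes that have an array row naming them alone, and each of the 4 had 1 row. The set was proposed with the cold rise of Kng2 already known. The levels of Kng2 in the cold are therefore given as a description, with no test.

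Expression was measured on 9 arrays of inguinal fat, the subcutaneous pad of the groin, in a study that set adipocyte loss of the transcription factor Zfp423 beside cold exposure. All mice carried the transgenes Adiponectin-rtTA and TRE-Cre (Tre-CRE in the knockout labels), lived at room temperature up to 8 weeks of age and then ate doxycycline chow for 28 days. The 3 groups, with 3 arrays each, were controls (Zfp423+/+) at room temperature, knockouts (Zfp423loxP/loxP) at room temperature, and controls (Zfp423+/+) kept at 6 °C for the last 14 of those days. The adiponectin promoter limits the deletion to adipocytes, while the RNA came from the whole pad, so other cells keep Zfp423. Nothing in the labels tells whether each array came from a mouse of its own. All p-values therefore measure spread among these arrays alone, some of which may be technical.

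Kininogens are secreted carrier proteins that hold the short peptide bradykinin in their chain. Kallikreins cut the peptide out, the B2 receptor (Bdkrb2) answers to intact kinins and is widely present on resting cells, and the B1 receptor (Bdkrb1) answers to kinins that have lost their last arginine and is known for being induced in inflamed tissue. The liver is the main source of circulating kininogen. The mouse has a pair of closely related kininogen genes side by side on chromosome 16, and array probes may not part them fully.

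Adipocyte genes marked every array: Adipoq, the adiponectin gene, lay between 14.70 and 15.34 and Fabp4 between 19.89 and 19.92 on the deposited log2 scale, close to its upper end of 19.93. Zfp423 lay between 8.22 and 8.74 in controls, 7.56 and 8.15 in knockouts and 8.40 and 8.83 in the cold. The difference of -0.53 ± 0.20 (SE) log2 units between knockouts and controls was not called (limma adjusted p = 0.254). No source used here says whether its probes lie in the deleted part. On 60.8%, 67.1% and 53.3% of the genes, control replicate 3, knockout replicate 3 and cold replicate 2 lay between the other arrays of their groups. Cold replicate 3 carries a slightly different label prefix and had little skeletal muscle signal: its muscle list (Acta1, Myh4, Ckm, Tnnt3 and Mylpf) had a mean of 7.56, against 11.24 to 13.29 on the other 8 arrays. Genes called numbered 63 of 16615 between knockouts and controls, 260 between cold and controls and 404 between cold and knockouts (limma adjusted p under 0.05). The calls moved strongly with single arrays, and leaving out 1 array at a time gave 0 to 840, 23 to 984 and 14 to 2698.

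Kng2 was high in the cold-exposed fat, low in the room temperature controls and intermediate in the knockouts. Its log2 values were 5.31, 4.96 and 4.92 in control replicates 1, 2 and 3. They were 5.28, 6.94 and 6.28 in knockout replicates 1, 2 and 3. They were 8.57, 8.31 and 8.55 in cold replicates 1, 2 and 3. The cold arrays lay above all 6 room temperature arrays (14.7% of genes tested had cold arrays entirely above the controls and 12.3% entirely above the knockouts), and knockout replicate 1 lay within the range of the controls. Controls averaged 5.06 ± 0.21 (SD, n = 3), knockouts 6.16 ± 0.84 and cold 8.48 ± 0.15. In whole tissue, a change in the number of cells of a type and a change in RNA per cell cannot be told apart.

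The cold mean of Kng2 was 3.41 ± 0.38 (SE) log2 units above the control mean, 10.6-fold on the deposited scale (the background in the low control values is not known), and stood 8th from the top among the 16615 genes tested. This is the contrast that chose the gene. Against the knockouts, whose comparison uses the same cold arrays, the cold mean was higher by 2.31 ± 0.38, or 4.96-fold, 18th from the top. The difference from controls stayed between 3.34 and 3.53, and that from knockouts between 1.87 and 2.70, over 17 alternatives each, among them leaving out any array. Most of these alternatives can move the difference little or not at all, so the ranges are no support for it.

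In the knockouts Kng2 stood 1.10 ± 0.38 (SE) log2 units above the controls, with a 95% interval from 0.22 to 1.99, and did not pass over all genes (limma adjusted p = 0.215, unadjusted p = 0.0214). Of the genes tested in that comparison, 0.379% passed. The exact two-sided permutation test of 3 against 3 gave p = 0.2, where 0.1 is the smallest this design allows. Leaving out knockout arrays moved it both ways: it was 1.55 ± 0.22 without replicate 1, the lowest (limma adjusted p = 0.021), and 0.72 without replicate 2, the highest (0.256). The first of these passed, but the array left out is the one whose own value was low, so it is no support for a difference. Without the filter the limma adjusted p was 0.356. The knockout comparison shares its control arrays with the cold comparison.

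Kng2 entered the genes tested because its mean over 9 arrays, 6.57, exceeded the filter at the table's median row mean of 5.31. Its control mean of 5.06 was below that filter, so it passed through the groups in which it was higher. The other 3 members were under the filter, with means of 4.47 (Kng1), 4.71 (Bdkrb1) and 4.12 (Bdkrb2), and their differences come from a fit without it over 30102 genes. The values carry no detection call, so whether the low members were expressed cannot be read from them.

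**Figure D1:**
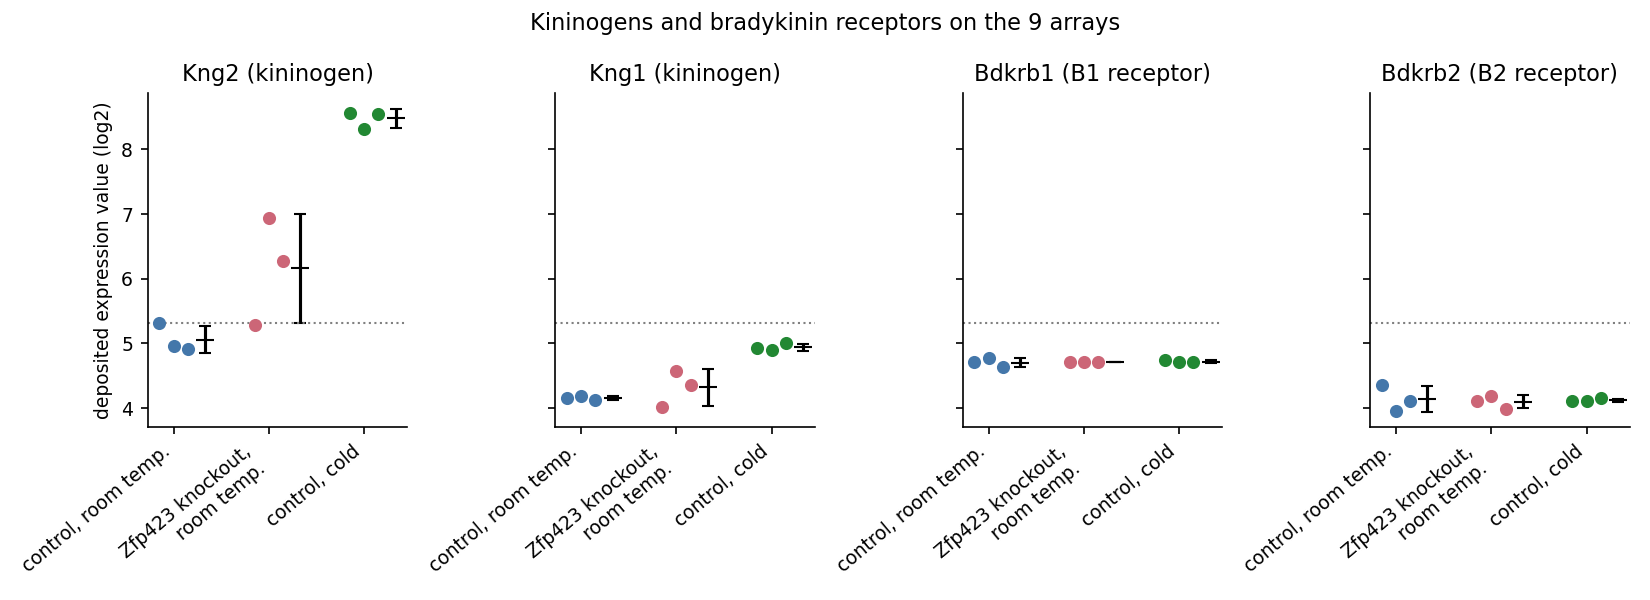
Deposited log2 values of the 4 genes (vertical axis) on each array, in replicate order within the 3 groups, with the group mean and SD as black bars to their right. The dotted line is the filter at 5.31: the cold arrays of Kng2 lie between 8.31 and 8.57, those of Kng1 between 4.90 and 5.0, and both receptors stay within 3.95 and 4.77.

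Kng1, the second kininogen, had the same order of group means at a lower deposited value. Its log2 values were 4.16, 4.19 and 4.13 in control replicates 1, 2 and 3 and 4.02, 4.57 and 4.36 in knockout replicates 1, 2 and 3. In cold replicates 1, 2 and 3 they were 4.93, 4.90 and 5.0. The cold arrays again lay above all room temperature arrays, while the knockout arrays reached from below the controls to above them.

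The cold mean of Kng1 was 0.78 ± 0.12 (SE) log2 units above the controls, with a 95% interval from 0.49 to 1.07. It did not pass in the fit without the filter (limma adjusted p = 0.0655, unadjusted p = 0.000414), in which 0.435% of 30102 genes passed. The exact two-sided permutation p was 0.1, the smallest possible, and 10.5% of all genes had cold arrays entirely above the controls. Over 16 alternatives the difference stayed between 0.75 and 0.80, and its limma adjusted p ranged from 0.00106 to 0.824, with 5 of the 16 under 0.05. Among these were leaving out knockout replicate 1 (0.00731) or knockout replicate 2 (0.022). Neither array enters this difference, which stayed at 0.78 while its SE fell to 0.06 and 0.09. Against the knockouts the cold mean was higher by 0.63 ± 0.12 (limma adjusted p = 0.0888) without overlap, as for 9.31% of all genes. It passed without knockout replicate 2, at 0.75 (limma adjusted p = 0.0264). The array left out is the highest knockout array of Kng1, so that pass is no support for a difference. Knockouts and controls differed by 0.15 ± 0.12 (limma adjusted p = 0.7, 95% interval -0.14 to 0.45). Among the genes of the fit without the filter, 0.724% and 0.0532% passed in these comparisons.

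Over the 9 arrays the rows of Kng1 and Kng2 had a Pearson r of 0.983. The r describes 3 groups of arrays and follows the group means. Shared sequence between the kininogens may give their probes common signal; its part in the Kng1 values was not tested.

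The promoter window of Kng2 is shown because this gene carries the cold difference. Of the members, Kng2 and Bdkrb2 were matched in the RefSeq promoter table (GRCm38.p6). Shown are the 250 bases before the annotated start, chr16:23029102-23029351 on the minus strand, 5′ to 3′, with motif matches in capitals:

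Kng2: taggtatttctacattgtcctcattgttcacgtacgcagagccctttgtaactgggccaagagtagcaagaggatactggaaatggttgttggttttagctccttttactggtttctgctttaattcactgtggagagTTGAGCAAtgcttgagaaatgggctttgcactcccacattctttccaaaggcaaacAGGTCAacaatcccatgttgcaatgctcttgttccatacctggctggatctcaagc

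The match AGGTCA, a half-site of nuclear receptors, begins 56 bases before the start, and 14% of the 32851 windows of this length in the table hold it on either strand. The match TTGAGCAA fits the motif TTGCNNAA, the core of the C/EBP site, on the other strand. It begins 112 bases before the start, and 9.56% of windows hold that motif. The letters of the cAMP response element TGACGTCA (1.55% of windows), its core TGACG (17.8%), the spaced direct repeat bound by PPAR and RXR pairs, known as DR1 (0.0335%), the extended half-site TCAAGGTCA (0.387%), the palindromic EBF site (0.779%), TATAAA (12.4%), the HNF4 site CAAAGTCCA (0.384%) and the palindromic HNF1 site (0.00913%) were not in the Kng2 window on either strand. The Bdkrb2 window held none of these motifs, those matched in Kng2 included. Each match is a description of letters and shows no binding.

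The receptor rows gave nearly constant values. Bdkrb1 read 4.71, 4.77 and 4.63 in control replicates 1, 2 and 3, then 4.71 on all 3 knockout arrays, and 4.74, 4.71 and 4.71 in cold replicates 1, 2 and 3. The deposited value was identical on 6 of the 9 arrays. Bdkrb2 read 4.35, 3.95 and 4.11 in control replicates 1, 2 and 3. It read 4.11, 4.19 and 3.99 in the knockouts and 4.11, 4.11 and 4.15 in the cold, with 4 arrays at an identical value. Repeats of this kind are common in low rows: 49.9% of the 13487 genes under the filter had 4 or more arrays at 1 value, against 24.7% of the 16615 above it.

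The 3 groups overlapped for both receptors in every comparison. Cold and control means of Bdkrb1 differed by 0.02 ± 0.04 (SE) log2 units, with a 95% interval from -0.06 to 0.10 (limma adjusted p = 0.822). For Bdkrb2 the cold difference was -0.01 ± 0.10, with an interval from -0.26 to 0.23 (limma adjusted p = 0.983). The knockout differences were 0.01 ± 0.04 for Bdkrb1 (-0.07 to 0.10, limma adjusted p = 0.951) and -0.04 ± 0.10 for Bdkrb2 (-0.28 to 0.20, limma adjusted p = 0.936). These intervals hold for the deposited values: for a row near background they do not bound a change in receptor RNA.

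Kng2 was set beside 8 genes of thermogenic fat, since inguinal fat forms beige adipocytes in the cold. Of the 8, 5 rose in the knockouts and 6 in the cold (limma adjusted p under 0.05), beside 0.235% and 1.36% of all genes tested. The list was drawn up with earlier results of these data known and is no independent evidence. Ucp1, the uncoupling protein, rose by 6.90 ± 0.47 (SE) log2 units in the knockouts and by 6.61 ± 0.47 in the cold (limma adjusted p = 0.00852 and 0.00223), near the upper end of the scale. Cox7a1, a cytochrome c oxidase subunit, rose by 4.29 ± 0.34 and 5.82 ± 0.34, Cidea, a lipid droplet protein, by 3.40 ± 0.36 and 2.68 ± 0.36, and Cpt1b, which carries fatty acids into mitochondria, by 4.87 ± 0.51 and 4.25 ± 0.51. Cox8b, another oxidase subunit, rose by 1.91 ± 0.26 and 2.77 ± 0.26, and the elongase Elovl3 rose in the cold by 6.61 ± 1.00 and stood at 4.44 ± 1.00 in the knockouts. The limma adjusted p values of the rises lay between 0.00122 and 0.0462. The deiodinase gene Dio2 stood at 4.89 ± 1.24 and 2.04 ± 1.24, and Ppargc1a, the mitochondrial coactivator, at 3.29 ± 0.89 and 1.73 ± 0.89, and neither passed (limma adjusted p from 0.125 to 0.378).

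The count of 5 in the knockouts was 0 without control replicate 1, control replicate 3, knockout replicate 3 or cold replicate 2. It was 2 without cold replicate 1 or cold replicate 3 and 8 without knockout replicate 1. The fits with a count of 0 called 1, 1, 0 and 0 of all 16615 genes, against 63 in the main fit. Those with a count of 2 called 10 and 8, and the fit with a count of 8 called 840. The count of 6 in the cold was 2 without control replicate 3 or cold replicate 2 and 3 without control replicate 1, cold replicate 1 or cold replicate 3. It was 4 without knockout replicate 3. These cold fits called 23 to 93 of all genes, against 260 in the main fit. Both counts were 0 without the 3 arrays that lay between the others of their group, as were the counts over all genes. The knockout count was also 0 with only knockouts and controls fitted, 2 without the filter and 8 with array weights. Over all genes these settings called 0 of 16615, 16 of 30102 and 11742 of 16615.

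The cold mean of Kng2 exceeded the knockout mean by 2.31 log2 units, as given above. In that same comparison 5 of the 8 thermogenic genes had a knockout mean above the cold mean and 3 a lower one, and their differences ran from -2.84 (Dio2) to 2.17 (Elovl3). Of the 8, 0 passed (limma, lowest adjusted p = 0.0629, and 2 at an unadjusted p under 0.05), while 2 passed as lower without knockout replicate 1 and 2 as higher without knockout replicate 2. Over all genes tested 2.43% passed in that comparison, and leaving out 1 array at a time called 14 to 2698. Ucp1 reached 19.92 on knockout replicate 2, against a table maximum of 19.93, so its difference between these groups cannot be read. Whether Kng2 differed from these genes in its response was not tested.

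Within the knockouts, the 3 arrays were ordered alike for Kng2, Kng1 and all 8 thermogenic genes: replicate 1 was the lowest and replicate 2 the highest. Knockout replicate 3 lay between the other knockout arrays on 67.1% of the genes tested, so this order or its reverse was the common one. Relative to the control mean, Kng2 stood at 0.22, 1.87 and 1.22 in knockout replicates 1, 2 and 3 and Ppargc1a at 1.07, 5.10 and 3.69. In the same order the knockouts had T cell list means of 11.47, 9.66 and 10.80, macrophage means of 12.14, 10.05 and 11.34 and muscle means of 11.24, 13.27 and 12.50. The adipocyte list (15.38, 16.25 and 15.91) and the endothelial list (11.37, 12.37 and 11.95) had the order of the kininogens, as muscle did, and the progenitor list (11.59, 10.86 and 11.26) had the reverse order, as the immune lists did. In the adipocyte list Lep (11.24, 13.90 and 12.89) and Plin1 (15.68, 16.45 and 16.12) moved, while Adipoq (14.70, 14.76 and 14.72) and Fabp4 (19.91, 19.91 and 19.92) were nearly constant. Fabp4 lay at the upper end of the scale, 19.93, so its constancy cannot be read. The part of these list shifts in the result was not tested.

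**Figure D2:**
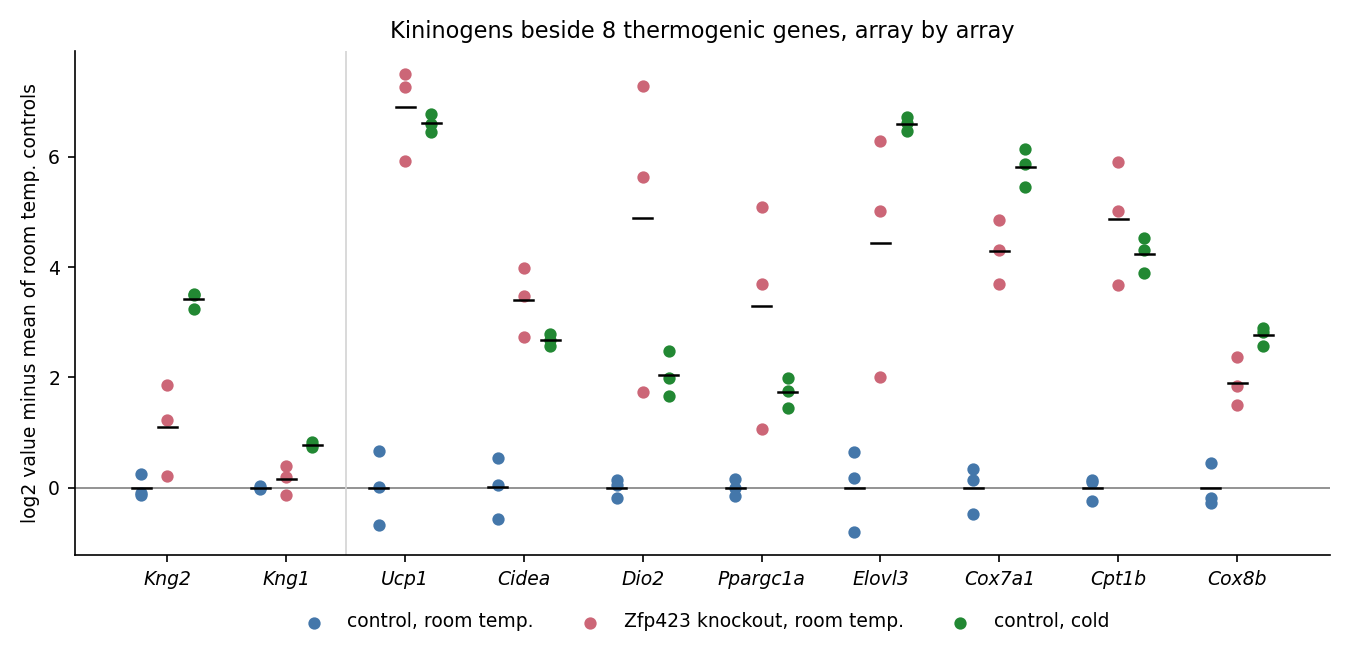
Log2 value minus the mean of the room temperature controls (vertical axis) for Kng2, Kng1 and 8 thermogenic genes, with 1 point per array and a black line at each group mean. Kng2 reaches 3.24 to 3.51 on the cold arrays and 0.22 to 1.87 on the knockout arrays. Every cold array also lies above every knockout array for 3 of the 8 thermogenic genes, Elovl3, Cox7a1 and Cox8b, as for 12.3% of all genes tested. These groups overlap for the other thermogenic genes. Ucp1, near the upper end of the scale, lies between 5.93 and 7.51 on the arrays of both groups.

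The genes whose 9 array values most resembled Kng2, among 11274 named genes, were Pdha1 (Pearson r = 0.991), a subunit of pyruvate dehydrogenase, Gatd3a (0.99), Mrpl50 (0.985), a mitochondrial ribosomal protein, the mitochondrial peptidase Mipep (0.984) and the mitochondrial pyrophosphatase Ppa2 (0.981). Pdha1 had means of 13.47, 13.96 and 15.19 in controls, knockouts and cold. For Kng1 they were Pdha1 (0.994), the cap-binding protein gene Eif4e3 (0.988), the glycogen branching enzyme Gbe1 (0.988), the copper chaperone Atox1 (0.984) and Kng2 (0.983). With 3 groups of arrays these coefficients follow the group means, which ran cold above knockout above control in each of these genes.

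For the receptors the same rule gave genes with little movement, which describes nearly flat rows. For Bdkrb1 they were Arf5 (0.941), Fndc10 (0.931), Smn1 (0.93), Riiad1 (0.912) and Bnip1 (0.903), with ranges over the arrays of 0.09 to 0.42 log2 units. For Bdkrb2 they were Zfp518b (0.962), Ccdc141 (0.951), Plekhg3 (0.92), Lhfp (0.919) and Rhbdd2 (0.918), with ranges of 0.24 to 0.67.

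The rest of the pathway, from kinin release to receptor signalling, held 37 listed genes, of which 31 had a row of their own and 24 were above the filter. In the knockouts and in the cold 0 of the 24 passed (limma, 5 and 6 at an unadjusted p under 0.05), beside 0.379% and 1.56% of all genes tested. Of all 16615 genes tested, 2704 and 3393 had an unadjusted p under 0.05 in these comparisons, so many genes outside the list did too. Between cold and knockouts 1 of 24 passed, beside 2.43% of all genes. Without knockout replicate 2 the count between cold and knockouts was 8 (4 higher and 4 lower) and that in the cold 2, and without knockout replicate 1 the count in the knockouts was 1. Over all genes the last pair of fits called 984 in the cold and 840 in the knockouts, against 260 and 63 in the main fit. Between cold and knockouts, leaving out 1 array at a time called 14 to 2698 genes. The count over all genes without knockout replicate 2 is not given here, so the 8 are not read as a result about the list. The median differences of the 24 were -0.01 for knockouts against controls, 0.06 for cold against controls and -0.04 for cold against knockouts, beside 0.02, -0.02 and -0.03 for all genes tested.

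Among the enzymes that release kinins, the row of Klkb1 (plasma kallikrein) also names another gene and was not used. Klk1 (tissue kallikrein) and the contact factors F11 and F12 were under the filter, with group means between 4.36 and 5.30. Prcp, a carboxypeptidase that activates prekallikrein, read 9.89, 10.06 and 9.89 in control replicates 1, 2 and 3, 10.73, 9.12 and 10.14 in the knockouts and 9.72, 9.71 and 9.56 in the cold. Its differences from controls, 0.05 ± 0.36 (SE) in the knockouts and -0.28 ± 0.36 in the cold, were not called (limma adjusted p = 0.962 and 0.684). Of the inhibitors, Serping1, the C1 inhibitor that blocks plasma kallikrein, stood at -0.52 ± 0.32 (SE) in the knockouts and -0.71 ± 0.32 in the cold (limma adjusted p = 0.468 and 0.264). Its 3 cold arrays lay below the 3 control arrays, as did the arrays of 18.2% of all genes tested. A2m, a broad protease inhibitor, was under the filter at a mean of 4.13 in each group.

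Among the peptidases that break down or trim kinins, 12 of 14 were above the filter. Mme (neprilysin) read 13.28, 12.80 and 13.08 in control replicates 1, 2 and 3 and 12.65, 12.88 and 12.74 in knockout replicates 1, 2 and 3. It read 13.41, 13.42 and 13.39 in the cold. The cold arrays lay above all others (14.7% of genes tested had cold arrays entirely above the controls and 12.3% entirely above the knockouts). Mme was higher in the cold than in the knockouts by 0.65 ± 0.12 (SE) log2 units (limma adjusted p = 0.0423). Its difference from controls was 0.35 ± 0.12 in the cold and -0.30 ± 0.12 in the knockouts (limma adjusted p = 0.173 and 0.282). The call between cold and knockouts was lost without control replicate 3 (limma adjusted p = 0.0989), knockout replicate 1 (0.0877), knockout replicate 3 (0.169), cold replicate 1 (0.113), cold replicate 2 (0.175) or cold replicate 3 (0.106), at differences between 0.60 and 0.71 over all arrays left out. It was also lost without the filter (0.0735) and with a trended, robust prior (0.0538).

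Cpn2, the carrier subunit of the carboxypeptidase N that turns bradykinin into the B1 receptor's ligand, was picked out after its values were seen. It read 4.76, 5.15 and 4.78 in control replicates 1, 2 and 3, then 5.71, 6.97 and 5.97 in the knockouts and 6.07, 5.93 and 5.71 in the cold. All 6 of the latter arrays lay above the controls, a pattern 9.41% of genes tested showed for the knockouts and 14.7% for the cold. The differences of 1.32 ± 0.31 (SE) and 1.01 ± 0.31 were not called (limma adjusted p = 0.106 and 0.154). Its control mean of 4.90 was under the filter, so it was tested only through the groups in which it was higher, and without the filter the limma adjusted p values were 0.19 and 0.248. The knockout difference was 1.58 without knockout replicate 1 (limma adjusted p = 0.0415) and 0.95 without knockout replicate 2 (0.0842). The first of these passed, but the array left out is the lowest knockout array of Cpn2, so it is no support for a difference. The cold difference was called without knockout replicate 2 (0.0206). That array does not enter the cold difference, which stayed at 1.01 while its SE fell to 0.15. Cpn1, the catalytic subunit, was under the filter, with group means from 4.02 to 4.09. Dpp4, a dipeptidyl peptidase of the cell surface, had the largest difference between cold and knockouts in the list, -1.18 ± 0.36, without a call (limma adjusted p = 0.102). Ace, the angiotensin-converting enzyme and a main kininase, stood against controls at -0.49 ± 0.31 and -0.38 ± 0.31 (limma adjusted p = 0.478 and 0.504).

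Downstream of the receptors, 10 of 15 signalling genes were above the filter and 0 passed in any of the 3 comparisons (limma, 2, 3 and 4 at an unadjusted p under 0.05 for knockouts against controls, cold against controls and cold against knockouts). With 0.379%, 1.56% and 2.43% of all genes tested called, a count of 0 among 10 is near the background. The largest cold differences were of phospholipases C. Plcb2 stood at 0.27 ± 0.27 (SE) in the knockouts and -0.75 ± 0.27 in the cold, and Plcb4 at -0.18 ± 0.26 and 0.70 ± 0.26 (limma adjusted p from 0.2 to 0.771). Ptgs2, the inducible cyclooxygenase, was under the filter with means between 4.75 and 4.92.

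**Figure D3:**
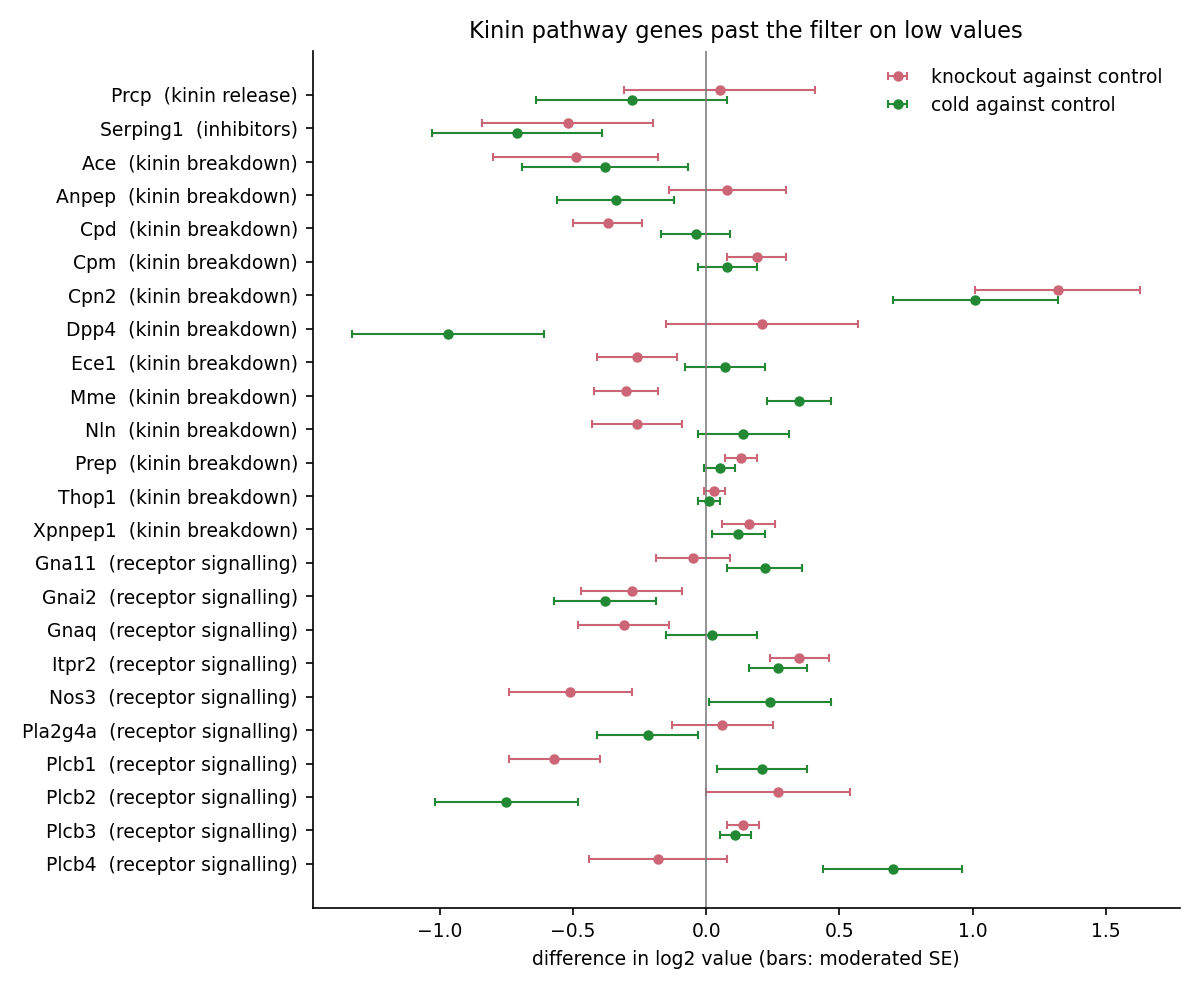
Differences in log2 value from the room temperature controls (horizontal axis, bars are moderated SE) for the 24 kinin pathway genes above the filter, with knockouts in red and cold in green. Cpn2 lies farthest to the right at 1.32 and 1.01, and 0 of the 24 passed in either comparison, beside 0.379% and 1.56% of all genes tested.

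The kininogens belong to the cystatin superfamily and sit in a cluster of related genes. In the RefSeq gene order on chromosome 16, the cystatin relatives Ahsg, Fetub and Hrg precede Kng2 and Kng1, and Eif4a2, Rfc4 and Adipoq follow. Of the 5 protein-coding genes on each side of the pair, 9 of 10 had a row of their own. Of these, 5 were above the filter and the others were taken from the fit without it, and 0 passed in any comparison (limma, lowest adjusted p = 0.0959, 0.094 and 0.111). With 0.379%, 1.56% and 2.43% of all genes tested called, a count of 0 among so few is near the background. Ahsg, Fetub and Hrg, all under the filter, differed by 0.16 ± 0.09 (SE), 0.11 ± 0.09 and 0.09 ± 0.07 in the cold. Adipoq, just beyond on the other side, stood at -0.46 ± 0.10 in the knockouts and -0.44 ± 0.10 in the cold (limma adjusted p = 0.0959 and 0.094). The other cystatins above the filter, Cst3 and Cstb, differed by -0.21 ± 0.09 and -0.12 ± 0.08 in the cold, without a call (limma adjusted p = 0.245 and 0.381).

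The receptor genes are likewise adjacent, on chromosome 12. All 10 of their neighbours had a row, 5 of them above the filter, and 0 passed in any comparison (limma, lowest adjusted p = 0.16, 0.471 and 0.0669). This count too is near the background of 0.379%, 1.56% and 2.43% of all genes tested.

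**Figure D4:**
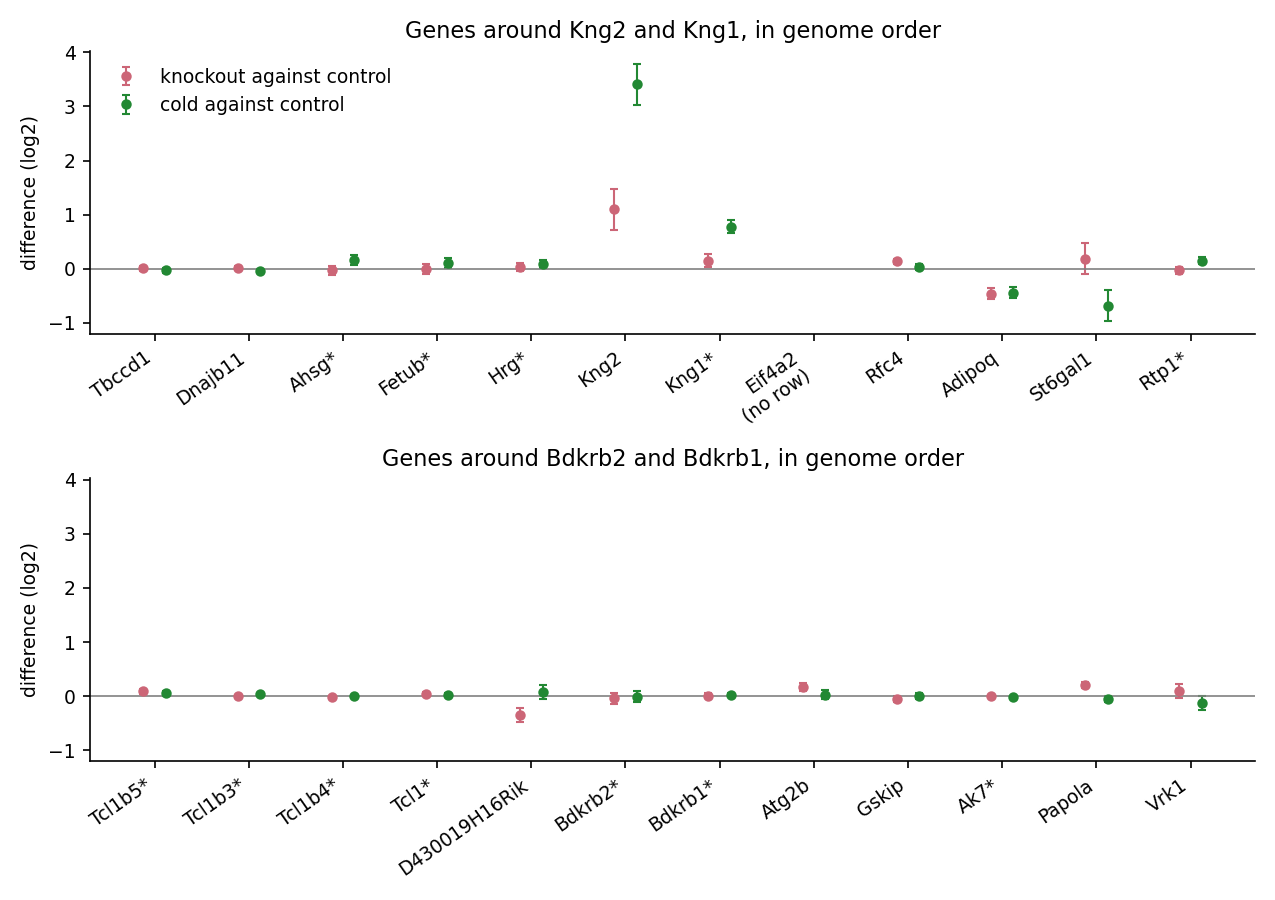
Differences in log2 value from the room temperature controls (vertical axis, bars are moderated SE) for the kininogen pair, the receptor pair and 5 protein-coding genes on each side, in genome order; an asterisk marks genes under the filter. Kng2 at 3.41 and Kng1 at 0.78 in the cold stand above their neighbours, whose cold differences run from -0.68 to 0.16. The set was chosen with the cold rise of Kng2 known, so its place above the neighbours is no support for it. Little movement can show in neighbours under the filter.

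The values of marker lists of other cell types also shifted between these groups. Of the T cell, macrophage and endothelial markers, 0 were called in any comparison. With 0.379%, 1.56% and 2.43% of all genes tested called, that count is near the background. The T cell list (Cd3e, Cd3g, Cd3d, Cd8b1 and Cd4) had means of 9.60 to 10.28 in controls, 9.66 to 11.47 in knockouts and 8.80 to 8.95 in the cold, and all 5 members were lower on every cold array than on the controls, as were 18.2% of all genes tested. The macrophage list (Adgre1, Cd68, Csf1r, Mrc1 and Lyz2) ranged from 10.75 to 11.97, 10.05 to 12.14 and 9.90 to 10.06, again with all 5 lower in the cold. The endothelial list ran from 11.85 to 12.16, 11.37 to 12.37 and 12.25 to 12.54, and 2 of its 5 members lay above the controls on every cold array, as did 14.7% of all genes tested. Of 3 Schwann cell markers with a row, 2 were called between cold and controls, beside 1.56% of all genes tested, and the members moved differently. S100b lay between 6.59 and 7.01 in controls, between 7.67 and 8.66 in knockouts and at 8.95 or higher in the cold. Mbp, a myelin protein gene, ran the other way, from 8.26 to 8.52 in controls and 7.93 to 7.99 in the cold, and Sox10 stayed between 5.58 and 5.65 on all arrays. The part of these shifts in the Kng2 values was not tested.

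Of the hepatocyte markers, Apoa1, Apoa2, Ttr and Fgb were under the filter. Alb, the albumin gene, was above it and read 10.27, 8.07 and 9.19 in control replicates 1, 2 and 3, 7.01, 8.70 and 7.77 in the knockouts and 9.97, 9.78 and 9.69 in the cold. Its cold arrays lay within the range of the controls and above all knockout arrays, the latter as for 12.3% of genes tested. The part of such RNA in the kininogen values was not tested. Mammary epithelial markers (Krt8, Krt18, Epcam, Csn3 and Elf5) were all under the filter. Cold replicates 1, 2 and 3 had skeletal muscle means of 13.12, 11.97 and 7.56 and Kng2 values of 8.57, 8.31 and 8.55. The part of muscle RNA in the Kng2 values was not tested.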

How the data were processed

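Total RNA was hybridised to Affymetrix MTA-1_0 arrays, 1 per sample, per the labels. The authors deposited log2 values for 72688 rows, made with Affymetrix Expression Console per the submitters' processing notes; no source used here gives its version, summarisation, normalization or genome build. A log2 scale was inferred from the deposited range of 1.84 to 19.93. Precision is limited by having 3 arrays per group.

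Row names come from GEO's platform annotation, with 827 symbols updated by Entrez ID from RefSeq (GRCm38.p6, used for names, gene order and promoters). Of 65770 transcript clusters, 30439 name 1 symbol, 2146 several and 33185 none; rows with several or none, and 6918 other rows, were left out. The brightest row per gene gave 30102 genes, and 16615 had a row mean at or above the table's median of 5.31.

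All 9 arrays were fitted with 3 group means in limma 3.58.1 (R 4.3.3, lmFit and eBayes, 6 residual and 1.23 prior degrees of freedom), two-sided, with Benjamini-Hochberg adjustment over all genes tested and a threshold of 0.05. The fit was tested on simulated data. Members under the filter take values from the fit without it. The members, lists, motifs and alternatives were chosen with earlier results of these data known, and the motifs with the promoter in view. Named are the members, list genes that passed (otherwise the pair with the largest differences), neighbours, and the 5 genes of highest Pearson r with each member. Genes outside this rule (Ace, Dpp4, Cpn1, Ptgs2, Klk1, F11, F12, A2m, Dio2, Ppargc1a and Cpn2) are named as examples chosen after their values were seen. Same-numbered replicates were not shown to be paired: their deviations from group means correlated between -0.462 and 0.0861.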

Additional observations from a re-analysis of the deposited data

How the results depend on the processing

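The cold differences of Kng2 stayed within the replicate spread in all 17 alternatives, most of which could not have given another outcome. Leaving out 1 of 3 arrays moves a group mean by less than 1 replicate SD. Fitting only 2 groups, no filter, a trended prior or a replicate block leaves the difference unchanged. No result turned its sign past the threshold. Array weights brought the knockout differences of Kng1 (0.22), Kng2 (1.35), Bdkrb1 (0.07) and Bdkrb2 (-0.12) and the cold differences of Kng1 from controls (0.79) and from knockouts (0.57) past the threshold, while calling 11742, 8945 and 9896 of 16615 genes for knockouts over controls, cold over controls and cold over knockouts. These counts are of genes above the filter, the fit from which Kng2 takes its adjusted p. Kng1, Bdkrb1 and Bdkrb2 take theirs from the fit without the filter, whose counts with array weights are not given here. The cold difference of Kng1 from controls also passed with only those 2 groups fitted (0.78) and with quantile normalization (0.77). Leaving out 1 array at a time gave 0.75 to 0.80 for it, 0.48 to 0.75 for Kng1 between cold and knockouts, and 0.72 to 1.55 for Kng2 between knockouts and controls.

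Genes called between knockouts and controls (63) became 0 with only those groups fitted (1922 at an unadjusted p under 0.05), 16 without the filter, 144 with the filter at the 75th percentile, 37 with a trended, robust prior and 0 to 840 with 1 array left out. Between cold and controls (260) they became 1347, 131 and 406 with only those groups, no filter and quantile normalization, and 23 to 984 with 1 array left out. Between cold and knockouts (404) they became 218 without the filter, 706 at the 75th percentile and 14 to 2698 with 1 array left out. Leaving out the array of each group that lay between the others gave 0 in each comparison (limma; 681, 780 and 964 at an unadjusted p under 0.05).

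When replicate number entered as a block (replicate block), 1, 42 and 37 genes were called, Kng2 stood at 1.10 between knockouts and controls (limma adjusted p = 0.339), and Mme lost its call at 0.65 (0.144). The thermogenic genes called fell to 0 of 8 in the knockouts and 3 of 8 in the cold. The numbers pair nothing by the labels or the deviations. The cause of these moves was not tested. Each member had 1 row, so averaging rows gave no other value, and 0 of the 4 members were above the 75th percentile. With 3 arrays a group, and 3 of 4 members under the filter, small changes in these genes were not detectable.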
